A study of Homo sapiens with 6 samples.

Results

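ATP-binding cassette (ABC) transporters were examined in a pooled CRISPR knockout screen. The guides were those whose gene name is ABC, a letter from A to G and a number, and they numbered 410 of the 71626 guides in the count table, for 41 of its 7093 genes. Each gene had 10 guides. The values below cover 39 of these genes, with 390 guides, from subfamilies ABCA, ABCB, ABCC, ABCD and ABCG. The cells were HAP1, an established human line with a near-haploid genome that descends from a leukaemia. The groups were SETD2-mutant cells, parental cells and the guide library, with 2 samples each. SETD2 is the enzyme that trimethylates histone H3 at lysine 36, and the labels name 1 mutant genotype without saying how it was made or from how many clones. Per the labels, each line received guide virus at a multiplicity of infection of 0.7, was then divided into replicates and was kept under puromycin for 12 doublings, so the replicates of a line share 1 transduction. How the library itself was sampled is not given there.

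ABC transporters couple the binding and hydrolysis of ATP to the movement of a substrate across a membrane. ABCA and ABCG proteins mostly move lipids and sterols, ABCD proteins serve peroxisomes and lysosomes, and ABCB and ABCC proteins include the drug efflux pumps, bile and conjugate exporters and several transporters of the mitochondrial inner membrane. Many members are known from tissues such as liver, retina, lung, skin and pancreatic islets.

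A change is given on the log2 scale as the mean over the 10 guides of a gene, with the standard error (SE) over guides, and a negative value means that cells carrying the guides became rarer. A gene was called depleted or enriched when edgeR's test per guide, combined over guides by robust rank aggregation (RRA), gave an adjusted p below 0.05 among all 7090 genes tested. All 390 guides passed the filter on library counts. Their mean library count ranged from 50.5 to 1272.5, with a median of 364, against 444 for all guides. Total counts per sample lay between 25082426 and 38428425. Per guide, the chi-square statistic between the replicates of a group averaged 12.8 in SETD2-mutant cells, 15.8 in parental cells and 1.45 in the library over the ABC guides, where counting error alone gives about 1. Guide sequences and cut sites were not analysed here, so guides are numbered 1 to 10 by their order in the table.

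Against library, edgeR with RRA called 0 of the 39 ABC genes depleted and 0 enriched in either line. Of all genes tested, 9.04% were depleted and 1.11% enriched in SETD2-mutant cells, and 9.9% were depleted and 1.11% enriched in parental cells. At an unadjusted RRA p below 0.05, 0 ABC genes were depleted in each line, beside 12% of all genes in SETD2-mutant and 12.1% in parental cells. At the same threshold 1 ABC gene, ABCB6, was enriched in each line, beside 10.3% of all genes in SETD2-mutant and 9.38% in parental cells. DESeq2 per guide with RRA also called 0 in either direction. Limma, run on the gene means, called 12 ABC genes depleted and 4 enriched in SETD2-mutant cells, beside 38.1% and 23.8% of all genes, and 8 and 5 in parental cells, beside 31.5% and 23.8%. Summed counts per gene, tested with edgeR, gave 10 depleted and 7 enriched in SETD2-mutant cells, beside 32.7% and 30.2% of all genes, and 4 and 4 in parental cells, beside 30.3% and 29.5%. Limma on gene means and edgeR on summed counts set the mean or sum of a gene against the spread between replicates and not against the spread over its guides. Guide by guide, 67 of 390 ABC guides were down and 76 up in SETD2-mutant cells, beside 23.7% and 22.2% of all guides, and 49 were down and 68 up in parental cells, beside 21.1% and 18.9%. A mean change beyond 0.5 in either direction was seen for 8 ABC genes in SETD2-mutant and 2 in parental cells. The share of all genes beyond 0.5 was not counted. The standard deviation over all genes tested was 0.883 in SETD2-mutant and 0.781 in parental cells, beside 0.328 and 0.240 over the ABC genes.

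Among ABC proteins of mitochondria, ABCB10, which is needed for heme synthesis in red cell precursors, held 128 and 121 CPM (counts scaled to the sample's total adjusted by its TMM factor) in SETD2-mutant cells, 114 and 118 CPM in parental cells, and 119 and 113 CPM in the library. Its changes from library were 0.03 (SE 0.119) in SETD2-mutant and -0.08 (SE 0.211) in parental cells. ABCB8, a part of a mitochondrial potassium channel, changed by 0.07 (SE 0.161) and 0.06 (SE 0.158). In CPM, ABCB8 held 153 and 168 in SETD2-mutant cells, 156 and 148 in parental cells, and 140 and 135 in the library. All 4 samples of the lines thus lay above both library samples for ABCB8, a pattern not counted over all genes. Some other ABC genes had it too, such as ABCA1, ABCB5 and ABCC2, and others, such as ABCA3, did not. In parental cells 6 of 10 ABCB8 guides were down. For ABCB10, both SETD2-mutant replicates lay above both parental replicates in mean change from library, as for 26.9% of all genes. Neither gene was called. ABCB6, a porphyrin transporter that carries the Langereis blood group, had the highest mean change of the 39 genes in both lines. It held 129 and 142 CPM in SETD2-mutant cells, 132 and 132 CPM in parental cells, and 84.0 and 89.2 CPM in the library. All 4 samples of the lines lay above both library samples, as for ABCB8. Its change was 0.65 (SE 0.182, 9 of 10 guides up, edgeR with RRA, adjusted p = 0.389) in SETD2-mutant cells and 0.65 (SE 0.199, 8 of 10 guides up, adjusted p = 0.141) in parental cells. ABCB6 had an unadjusted RRA p below 0.05 for enrichment, 0.0298 for SETD2-mutant and 0.00345 for parental cells, as did 10.3% and 9.38% of all genes. It ranked 75 and 77 from the highest mean of 7090 genes. With samples scaled on the guides named dummyguide, whose meaning the labels do not state, its change was -0.28 in SETD2-mutant and -0.07 in parental cells, so the sign depends on what is taken as unchanged. Limma, on means per gene (adjusted p = 0.000536 and 0.000571), and edgeR on summed counts (0.00014 and 0.000239) called it enriched.

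The screen measured 5 of 22 listed genes of mitochondrial iron-sulfur and heme metabolism. NFS1, the cysteine desulfurase that supplies sulfur for iron-sulfur clusters, changed from library by -3.91 and -3.95 in SETD2-mutant cells and by -3.64 and -3.65 in parental cells. It was depleted in both lines, with means of -4.01 (SE 0.547, adjusted p = 4.35e-05) and -3.68 (SE 0.347, adjusted p = 4.61e-07 by edgeR and RRA). The other 4 were not called: the mitochondrial iron importers SLC25A28 (-0.80 in SETD2-mutant and -0.59 in parental cells) and SLC25A37 (0.32 and 0.24), the carrier SLC25A39 (-0.24 and -0.06) and the first enzyme of heme synthesis, ALAS1 (-0.42 and -0.27). The median of the 5 genes was -0.42 in SETD2-mutant and -0.27 in parental cells, beside -0.05 and -0.01 over all genes tested.

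ABCD2 and ABCD3 carry long-chain, very long-chain or branched fatty acids as CoA esters into peroxisomes, and ABCD4 serves the export of cobalamin from lysosomes. None of the 3 was called in any comparison by edgeR and RRA. ABCD2 stood at -0.40 (SE 0.236) in SETD2-mutant and -0.35 (SE 0.303) in parental cells, ABCD3 at -0.14 (SE 0.248) and 0.07 (SE 0.254), and ABCD4 at 0.15 (SE 0.243) and -0.06 (SE 0.193). Limma on gene means called ABCD2 depleted against library in both lines. Summed counts, tested with edgeR, called ABCD2 and ABCD3 depleted in SETD2-mutant cells against library. Both methods called ABCD3 depleted between the lines, and neither called ABCD4. The ABCD3 change in parental cells was 0.02 without parental replicate 1, and the ABCD4 change in SETD2-mutant cells was 0.0075 without SETD2-mutant replicate 1 and 0.26 without SETD2-mutant replicate 2. Of 18 listed genes of peroxisome biogenesis and beta-oxidation, 12 were measured and 0 were called in any comparison by edgeR and RRA. Their medians from library were -0.15 in SETD2-mutant and -0.11 in parental cells, beside -0.05 and -0.01 over all genes. At most 9.9% of all genes were called per comparison and direction, so 0 calls in so short a list say little. The same holds for cobalamin handling, with 5 of 9 listed genes measured and 0 called. Among these MTR, the cobalamin-dependent methionine synthase, had all 10 guides up between the lines at 0.49 (SE 0.0714, adjusted p = 0.976).

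The main drug efflux pumps were not called in any comparison by edgeR and RRA. ABCB1 (P-glycoprotein) changed from library by -0.24 and -0.19 in the SETD2-mutant replicates and by -0.24 and -0.26 in the parental replicates, and these values overlapped. ABCG2 (breast cancer resistance protein) changed by -0.35 and -0.31 in the SETD2-mutant replicates and by -0.16 and -0.24 in the parental replicates. Its difference between the lines was -0.13 (SE 0.263), with an unadjusted RRA p of 0.0446 and an adjusted p of 0.644, and its guides ranged from -1.08 to 1.13. ABCC1 (MRP1), which exports glutathione conjugates, changed by -0.38 and -0.26 in the SETD2-mutant replicates and by 0.00 and 0.10 in the parental replicates. The difference of -0.37 (SE 0.141, 7 of 10 guides down) had an adjusted p of 1 with edgeR and RRA, while limma (adjusted p = 0.00708, on means per gene) and edgeR on summed counts (0.00946) called ABCC1 depleted. Against library, limma called ABCB1 depleted in SETD2-mutant (adjusted p = 0.0139) and parental cells (0.00923), and ABCG2 likewise (0.00227 and 0.0208). ABCC1 was called depleted against library by limma and by summed counts in SETD2-mutant cells, and by neither in parental cells. Summed counts called ABCG2 depleted between the lines (adjusted p = 0.00977) and in SETD2-mutant cells against library (0.00937), while in parental cells its change was 0.03 by that measure (adjusted p = 0.697).

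Among the other ABCC genes, ABCC4, an exporter of cyclic nucleotides and prostaglandins, had the highest change in parental cells. It held 178 and 176 CPM in SETD2-mutant cells, 195 and 203 CPM in parental cells, and 146 and 141 CPM in the library. Its change was 0.22 (SE 0.160) in SETD2-mutant and 0.42 (SE 0.133, edgeR with RRA, adjusted p = 0.560) in parental cells. Limma on gene means and edgeR on summed counts called ABCC4 enriched against library in both lines and depleted between the lines. ABCC8, the sulfonylurea receptor of pancreatic beta cells, stood at 0.15 (SE 0.183) and 0.26 (SE 0.232), and its channel partner KCNJ11 at -0.03 (SE 0.272) and 0.08 (SE 0.0774). ABCC8 was called enriched in parental cells by limma and by summed counts, and in SETD2-mutant cells by summed counts alone. Over the 11 ABCC genes the change from library ranged from -0.29 to 0.22 in SETD2-mutant cells and from -0.24 to 0.42 in parental cells. The ABCC subfamily had the narrowest spread over genes, with a standard deviation of 0.168 in SETD2-mutant and 0.182 in parental cells. ABCC5, an exporter of cyclic nucleotides, followed ABCA13 and ABCG1 in order of RRA p for enrichment between the lines. Its replicates changed from library by -0.28 and -0.05 in SETD2-mutant cells and by -0.03 and -0.14 in parental cells, and these values overlapped. Its difference was -0.07 (SE 0.263, 7 of 10 guides up, edgeR with RRA, adjusted p = 0.979), and its guides ranged from -1.47 to 0.80.

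The lipid transporters of subfamilies ABCA and ABCG were likewise not called in any comparison by edgeR and RRA. In SETD2-mutant against library, limma on gene means called ABCA3, ABCA5, ABCA7, ABCG2, ABCG5 and ABCG8 depleted and ABCA12 and ABCG1 enriched. In parental against library it called ABCA13, ABCA3, ABCG2, ABCG5 and ABCG8 depleted and ABCG1 enriched. Of all genes, limma called 38.1% depleted and 23.8% enriched in SETD2-mutant cells, and 31.5% and 23.8% in parental cells. Summed counts gave ABCA3, ABCA7, ABCG2 and ABCG8 depleted and ABCA12, ABCA13 and ABCG1 enriched in SETD2-mutant cells. In parental cells they gave ABCA3 and ABCG8 depleted and ABCA8 enriched. Of all genes, summed counts called 32.7% and 30.2% in SETD2-mutant cells, and 30.3% and 29.5% in parental cells. In subfamily ABCA the lowest was ABCA3, which fills the surfactant bodies of the lung, with -0.57 (SE 0.400) in SETD2-mutant and -0.53 (SE 0.251) in parental cells. Guide 10 of ABCA3 had 13 and 17 counts in SETD2-mutant cells, 82 and 26 in parental cells, and 250 and 224 in the library. Without it, ABCA3 averaged -0.22 in SETD2-mutant and -0.35 in parental cells. ABCA7 stood at -0.56 (SE 0.238, 8 of 10 guides down) in SETD2-mutant and -0.20 (SE 0.249) in parental cells. The highest of the subfamily was ABCA12, which loads ceramides in the skin, with 0.41 (SE 0.174) and 0.16 (SE 0.158). ABCA1, which passes cholesterol to apolipoprotein A-I, stood at -0.06 (SE 0.247) and 0.12 (SE 0.107). In subfamily ABCG the cholesterol exporter ABCG1 stood at 0.50 (SE 0.210, 9 of 10 guides up) and 0.23 (SE 0.151). ABCG5 and ABCG8, which pair to form 1 sterol exporter, stood at -0.76 (SE 0.468) and -0.53 (SE 0.134) in SETD2-mutant cells and at -0.41 (SE 0.396) and -0.24 (SE 0.133) in parental cells. For ABCG8, 9 of 10 guides were down in SETD2-mutant cells, with an adjusted p of 0.553 by edgeR with RRA, 0.000315 by limma on gene means and 3.38e-05 by edgeR on summed counts. Of 8 listed partners in cholesterol and lipid efflux, 5 were measured and 0 called by edgeR and RRA. At most 9.9% of all genes were called per comparison and direction. The 5 included NR1H2 and NR1H3, receptors for oxysterols that switch on ABCA1 and ABCG1. NR1H2 stood at 0.54 and NR1H3 at -0.14 in SETD2-mutant cells, and they stood at 0.17 and 0.40 in parental cells. ABCA8 had guides at both ends, from -2.56 to 1.07 in SETD2-mutant cells. Its summed guides held 109 and 130 CPM in SETD2-mutant cells, 182 and 130 CPM in parental cells, and 98.2 and 99.8 CPM in the library. The sum was thus above the library in all 4 samples of the lines, a pattern not counted over all genes. The mean over guides was -0.27 (SE 0.422) in SETD2-mutant and 0.03 (SE 0.343) in parental cells.

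Some means were lowered by single guides. Guide 8 of ABCB9, a lysosomal peptide transporter, had 3 and 0 counts in SETD2-mutant cells, 28 and 12 in parental cells, and 404 and 317 in the library. The other 9 guides of ABCB9 averaged 0.05 in SETD2-mutant and -0.06 in parental cells, against gene means of -0.70 and -0.47. Guide 5 of ABCG5 had 4 and 19 counts in SETD2-mutant cells, 20 and 17 in parental cells, and 267 and 246 in the library. Without it, ABCG5 averaged -0.38 in SETD2-mutant and -0.04 in parental cells. A guide down by more than 3 in both lines, within a gene whose median guide was above -0.5 in both, occurred in 2 of 39 ABC genes, these 2, and in 3.03% of all genes. This pattern was described after the values were seen. Of the 390 ABC guides, 4 (1.03%) were down by more than 3 in SETD2-mutant cells and 3 (0.769%) in parental cells, beside 4.10% and 3.11% of all guides, and the 2 above were so in both. Guide 5 of ABCA13, a large lipid transporter gene, differed between the lines: it had 40 and 39 counts in SETD2-mutant cells, 9 and 5 in parental cells, and 77 and 60 in the library. In the upward direction, 2 guides were up by more than 1 in both lines. Guide 1 of ABCB6 had 170 and 295 counts in SETD2-mutant cells, 408 and 332 in parental cells, and 104 and 77 in the library. Guide 2 of ABCC2, a liver exporter of bilirubin conjugates, had 242 and 500 counts in SETD2-mutant cells, 805 and 704 in parental cells, and 184 and 186 in the library.

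SETD2-mutant against parental asks whether loss of a transporter weighs more on cells without normal SETD2, and edgeR with RRA called 0 of the 39 genes in either direction. Of all genes tested, 1.28% were depleted and 1.03% enriched in this comparison. At an unadjusted RRA p below 0.05, 2 ABC genes were depleted (ABCB4 and ABCG2) and 0 enriched, beside 7.53% and 6.84% of all genes. DESeq2 per guide with RRA also called 0 in either direction, limma, on means per gene, called 6 depleted and 3 enriched, beside 22.4% and 12.8% of all genes, and edgeR on summed counts called 8 depleted and 5 enriched, beside 21.2% and 20% of all genes. Both SETD2-mutant replicates lay below both parental replicates for 14 of 39 ABC genes and above them for 8, beside 38.8% and 26.9% of all genes. Guide by guide, 47 of 390 ABC guides were down and 39 were up by edgeR, or 12.1% and 10%, beside 12.8% and 11.5% of all guides. The median of the 39 genes was -0.06, beside -0.04 over all genes.

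ABCB4 had the lowest mean and the lowest RRA p of the 39 genes between the lines. It moves phosphatidylcholine into bile in the liver. Its guides together held 107 and 101 CPM in SETD2-mutant cells, 146 and 133 CPM in parental cells, and 125 and 122 CPM in the library. The SETD2-mutant samples were the lowest and the parental samples the highest, with no overlap. In parental cells this sum lay above the library, while the mean change over guides lay below 0. The mean change from library was -0.62 and -1.07 in the SETD2-mutant replicates and -0.16 and -0.30 in the parental replicates. The difference was -0.60 (SE 0.211, 7 of 10 guides down), with an unadjusted RRA p of 0.0047 and an adjusted p of 0.206 with edgeR and RRA. ABCB4 was called depleted without SETD2-mutant replicate 1, by -0.89 with an adjusted p of 0.0243, as well as by limma on gene means (0.0162) and by edgeR on summed counts (0.00149). Over 18 alternatives its adjusted p ranged from 0.00149 to 0.813. Guide 3 contributed most, with 31 and 9 counts in SETD2-mutant cells, 69 and 118 in parental cells, and 350 and 370 in the library. Without guide 3 the mean difference was -0.45.

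At the other end, ABCA13 had the highest mean between the lines, 0.58 (SE 0.274, 7 of 10 guides up, edgeR with RRA, adjusted p = 0.768). Its replicates changed from library by 0.32 and 0.03 in SETD2-mutant cells and by -0.47 and -0.23 in parental cells, without overlap. The value was 0.33 without guide 5, whose own difference was 2.79, and 0.36 without SETD2-mutant replicate 1. Limma on gene means (adjusted p = 0.014) and edgeR on summed counts (0.00214) called ABCA13 enriched. ABCG1 followed in order of RRA p, with 0.27 (SE 0.218, adjusted p = 0.774), and limma on gene means called it enriched. The SETD2-mutant replicates lay below both parental replicates for ABCG5 at -0.35 (SE 0.220) and ABCG8 at -0.28 (SE 0.117). For ABCA7, a phospholipid transporter of brain and macrophages, the difference was -0.37 (SE 0.189) and the replicates of the lines overlapped. None of these 3 was called by edgeR and RRA. Limma on gene means and edgeR on summed counts called ABCG8 depleted, summed counts also called ABCA7 depleted, and neither called ABCG5.

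Several ABC genes lie side by side, so that neighbours could be set beside each other. On chromosome 7, ABCB4 (87365896 to 87476027) and ABCB1 (87503017 to 87713295) lie 26990 bp apart, and their differences between the lines were -0.60 and 0.06. The 13 uncalled genes within 5 Mb of ABCB4 had a median difference of -0.08. On chromosome 2, ABCG5 (43806211 to 43839231) and ABCG8 (43838971 to 43882988) overlap, and their differences were -0.35 and -0.28, beside a median of -0.08 over 18 uncalled neighbours. On chromosome 17, ABCA8, ABCA9, ABCA6, ABCA10 and ABCA5 follow each other between 68867289 and 69327133. Their differences were -0.30, -0.02, 0.34, 0.18 and -0.08 in that order, so neighbours in this cluster took both signs. On chromosome 16, ABCC1 (15949143 to 16143053) stood at -0.37 and its neighbour ABCC6 (16149565 to 16223494) at 0.03.

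The standard deviation over the 39 ABC genes was 0.328 in SETD2-mutant cells and 0.240 in parental cells against library, and 0.222 between the lines. The 72 orphan receptors with GPR names had 0.344, 0.269 and 0.25, and the 367 solute carriers, a family of transporters that do not use ATP directly, had 0.551, 0.432 and 0.300. Of the 367 solute carriers, edgeR and RRA called 10 depleted and 2 enriched in SETD2-mutant cells, beside 9.04% and 1.11% of all genes. In parental cells 11 and 2 were called, beside 9.9% and 1.11% of all genes. Of the 72 GPR receptors 0 were called. The median change was -0.04 for the ABC genes, -0.02 for the solute carriers and 0.04 for the GPR receptors in SETD2-mutant cells, and -0.03, -0.02 and 0.08 in parental cells. These figures are descriptions, and the families were not tested against each other. With the dummyguide guides as the scale, the ABC median was -0.98 in SETD2-mutant and -0.75 in parental cells and that of all genes was -0.98 and -0.73. All other changes given here are therefore relative to the bulk of the guides.

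The name rule leaves out 3 ABC genes that have other symbols and that were measured with 10 guides each. CFTR, the chloride channel of cystic fibrosis, stood at -0.10 (SE 0.180) in SETD2-mutant and -0.35 (SE 0.281) in parental cells. TAP1 and TAP2, which together carry peptides into the endoplasmic reticulum, stood at -0.44 (SE 0.351) and 0.00 (SE 0.241) in SETD2-mutant cells and at -0.14 (SE 0.286) and -0.07 (SE 0.162) in parental cells. None of the 3 was called in any comparison by edgeR and RRA, and CFTR had an unadjusted p of 0.0401 for enrichment between the lines. Of the 7 listed genes of peptide loading, all were measured and 0 were called, beside at most 9.9% of all genes per comparison and direction. The lowest was PDIA3, a chaperone of the loading complex, at -0.85 (SE 0.443) and -0.61 (SE 0.275), and B2M, the light chain of class I molecules, stood at 0.50 (SE 0.195) and 0.16 (SE 0.175). Of the 13 listed genes of ribosome recycling and stalling, 1 was measured, the kinase EIF2AK4, at 0.05 in SETD2-mutant and 0.23 in parental cells.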

How the data were processed

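Guides were counted by sequencing in 2 samples each of SETD2-mutant cells, parental cells and the library. The table that the authors deposited holds unnormalised read counts for each guide. The submitters' processing notes name MAGeCK and hg38, whose roles and settings are not given in the sources used here. Columns were matched to samples by name. The filter required a library mean of at least 30 counts, which 71470 guides met, and the 100 named dummyguide were set aside. TMM factors scaled the samples, which were fitted by group over the 6 samples with edgeR 4.0.16 in R 4.3.3 (glmQLFit, robust, and glmQLFTest). Guides were ranked by signed p and combined to genes with 3 or more guides by RRA, with a rank share limit of 0.25 and its exact null distribution (scipy 1.17.1). MAGeCK itself was not run. P-values were adjusted by Benjamini-Hochberg over 7090 genes in each direction, or over all guides for single guides. Replicate changes use log2 CPM with a prior count of 2. The fit and the aggregation were tested on simulated data. Alternatives covered scaling, filters, the tool (DESeq2 1.42.0, limma 3.58.1 on gene means, summed counts), the replicate block and single samples left out. The 39 symbols were found in a RefSeq table of GRCh38.p14. The members and lists were chosen with earlier results of these data known. The genes described are the 3 with the lowest RRA p in each comparison and direction, and the mitochondrial, peroxisomal and main drug efflux members. Others were described by range or position, chosen after their values were seen. Of the first kind, ABCC6 (-0.24) and ABCA10 (-0.14) in parental cells and ABCC2 (0.05) in SETD2-mutant cells were not called against library by edgeR and RRA. Results for 2 genes of the rule are not reported here. Since replicates share a transduction, p-values cover the spread of these samples and guides alone.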

Additional observations from a re-analysis of the deposited data

How the results depend on the processing

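Of 18 alternatives, 17 apply to the comparisons with library. No ABC gene of the 39 was called by edgeR and RRA in any comparison, and the count stayed at 0 under each alternative except limma, summed counts and 1 sample left out. Depleted genes between the lines numbered 0 to 1 over single samples left out, the 1 being ABCB4 without SETD2-mutant replicate 1. Limma, on means per gene, called 12 depleted and 4 enriched in SETD2-mutant against library, 8 and 5 in parental against library and 6 and 3 between the lines. Summed counts called 10 and 7, 4 and 4, and 8 and 5. Over all genes, calls moved by more than 1.5 times as follows. Limma called 2703 depleted and 1690 enriched in SETD2-mutant against library, 2234 and 1689 in parental against library and 1585 and 910 between the lines, and summed counts called 2320 and 2138, 2149 and 2092, and 1503 and 1417. The settings as reported gave 641 and 79, 702 and 79, and 91 and 73. Enriched genes in SETD2-mutant cells numbered 35 with dummyguide scaling and 50 without SETD2-mutant replicate 1, and those between the lines 180 at equal ribosomal protein dropout.

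Dummyguide scaling turned the sign of 15 of 42 named values, each time downward. Against parental cells these were ABCB1 (-0.15), ABCB10 (-0.10), ABCB8 (-0.20) and ABCD4 (-0.0065). In parental against library they were ABCB6 (-0.068), ABCB8 (-0.66), ABCC1 (-0.64), ABCC4 (-0.31), ABCC8 (-0.46) and ABCD3 (-0.65). In SETD2-mutant against library they were ABCB10 (-0.90), ABCB6 (-0.28), ABCB8 (-0.86), ABCC2 (-0.88) and ABCD4 (-0.78). Other signs turned for values near 0: ABCB6 between the lines with library totals (0.010), a library count of 100 or more (0.042) and summed counts (0.043), and ABCD2 between the lines at equal ribosomal protein dropout (0.0045). With summed counts ABCB1 between the lines (-0.068), ABCD3 (-0.16) and ABCG2 (0.030) in parental cells and ABCA8 in SETD2-mutant cells (0.18) turned as well. With single samples left out, signs turned between the lines for ABCA8 (-0.51 to 0.010), ABCB1 (-0.0040 to 0.083), ABCB6 (-0.13 to 0.079), ABCB8 (-0.039 to 0.11), ABCC5 (-0.22 to 0.014) and ABCD2 (-0.15 to 0.023). In parental cells they turned for ABCB8 (-0.040 to 0.11) and ABCC1 (-0.0013 to 0.10), and in SETD2-mutant cells for ABCB10 (-0.0099 to 0.054). None of these values was called in the setting where its sign turned.

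With the replicate block, the ABCB6 change in parental cells was 0.65 (adjusted p = 0.135, edgeR with RRA), and 0 of the 39 genes were called in each comparison. Guide by guide, differences between replicates correlated at -0.005 to -0.003 between groups, so replicates of the same number shared no guide-specific deviation. Whether replicate numbers stand for shared handling was not tested. The alternative without guides that have several genomic sites was not run. Guides with fewer than 10 counts numbered 2 and 2 of 390 in SETD2-mutant cells and 1 and 1 in parental cells, and their differences between the lines are the least precise. The causes of these shifts were not tested.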
